A study of Homo sapiens with 18 samples.

Results

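The 32 human genes that encode the subunits of heterotrimeric G proteins were followed across 18 RNA sequencing libraries of a neuroblastoma cell line. They were taken by symbol from the 58735 genes of the deposited count table, with no measured value used in the choice: 15 α genes, 5 β genes and 12 γ genes. Of these, 29 were abundant enough to be tested, among 23231 tested genes in all. GNA15, GNAT1 and GNGT2 were not.

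A heterotrimeric G protein is an α subunit that binds guanine nucleotide and a βγ pair that stays together. An activated receptor makes α exchange GDP for GTP, after which α and βγ each act on effectors until α hydrolyses its GTP. Opioid receptors couple to the Gi/o class, whose α subunits inhibit adenylyl cyclase and whose released βγ opens inwardly rectifying potassium channels and inhibits presynaptic calcium channels. Gs stimulates adenylyl cyclase, Gq/11 activates phospholipase Cβ, G12/13 acts on the cytoskeleton, and the transducins serve vision.

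The cells were SH-SY5Y, an established human neuroblastoma line of wild-type genotype. All of them had first been kept for 7 days in ATRA (all-trans retinoic acid) at 10 µM, which drives the line towards a neuron-like state, and were then treated for 15 min before RNA extraction. There were 6 groups of 3 libraries. Control received water, 3 groups received a ligand at 200 nM (naloxone, Beta-Endorphin or TRV130), and the others received 193 nM morphine or 169 nM metamorphine. Morphine is the classical opioid agonist, TRV130 (oliceridine) an agonist of the μ receptor described as G protein-biased, β-endorphin an endogenous opioid peptide and naloxone an opioid antagonist. The libraries are those of a single line, and the labels do not say whether each came from its own culture, so that every p-value reflects only how these libraries scatter, a scatter that may be technical.

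Each library name ends in 1 of 3 codes, called A, B and C here, whose meaning the labels do not give. Code A held 7 libraries, B 6 and C 5. Replicates 1, 2 and 3 of every group had codes A, B and C in that order, except that TRV130 1 and TRV130 2 both had code A, TRV130 3 had code B, and no TRV130 library had code C. Each of the other groups had 1 library of each code.

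Sequences at the 3′ ends of the coding regions show how the members differ where receptors and membranes meet them. In the α genes the last codons encode the tail that contacts the receptor. The 5 last codons and the stop codon are given 5′ to 3′ on the coding strand (GRCh38, GENCODE 29), with the codon that is the fourth from the end of the protein in capitals. In the Gi/o class this codon is the cysteine that pertussis toxin modifies, except in GNAZ. GNAS and GNAO1 have further annotated ends, and those shown are the ones of their listed principal transcripts.
GNAI1 (chr7:80217476-80217493, plus strand): gatTGTggtctcttttaa
GNAI2 (chr3:50257673-50257690, plus strand): gacTGCggcctcttctga
GNAI3 (chr1:109592216-109592233, plus strand): gaaTGTggactttattga
GNAO1 (chr16:56355036-56355053, plus strand): ggcTGCggcttgtactga
GNAZ (chr22:23123414-23123431, plus strand): tacATTggcctttgctga
GNAS (chr20:58910812-58910829, plus strand): cagTACgagctgctctaa
GNAQ (chr9:77721323-77721340, minus strand): gagTACaatctggtctaa
GNA13 (chr17:65014257-65014274, minus strand): cagCTTatgctacagtga

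The γ subunits end in a cysteine, 2 further residues and a last residue that sets which lipid is attached. A leucine at the end marks a protein for the longer geranylgeranyl group, and a serine for farnesyl. The 4 last codons and the stop codon are shown, with the last codon in capitals, for γ genes on which the results below turn. GNG11 and GNGT1 end in a serine codon, and the other 4 in a leucine codon.
GNG2 (chr14:51966673-51966687, plus strand): tgtgccatcCTTtaa
GNG5 (chr1:84501845-84501859, minus strand): tgttcctttTTGtag
GNG8 (chr19:46634076-46634090, minus strand): tgtgttctgCTCtga
GNG10 (chr9:111666926-111666940, plus strand): tgtgctttaCTCtga
GNG11 (chr7:93926202-93926216, plus strand): tgtgttattTCAtaa
GNGT1 (chr7:93910904-93910918, plus strand): tgtgtgattTCAtaa

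Library totals ran from 21211449 to 33123855 counts, and the 32 members took between 0.575% and 0.837% of them. Of 10 markers of noradrenergic neuroblastoma, the cell type of this line, 8 had a mean of at least 1 CPM per kb. The same held for 3 of 12 immune, 2 of 10 epithelial, 1 of 7 Schwann and glial and 6 of 10 fibroblast and mesenchymal markers. CPM here are counts scaled to 1000000 per library, with library sizes corrected by the trimmed mean of M values (TMM), and CPM per kb divides them by the summed exon length of the gene. Control 1 stood apart: it held 20888 counts in genes whose median over the 18 libraries was 0, against 276 to 3074 in the other 17. Compound results that rest on it are given with and without it.

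Levels between genes were compared per length. GNAS, the gene of the α subunit of Gs, stood at 295.8 ± 68.7 CPM per kb (SD, n = 18) with a range of 215.4 to 418.1, which was 71.4% ± 5.14 of the α sum. Its lowest library lay above the highest library of every other α gene. Summed over its members, the Gs class came to 296.6 CPM per kb, the Gi/o class to 40.5, G12/13 to 36.1, Gq/11 to 35.2 and the transducins to 1.76. With the median annotated transcript as the length, GNAS made up 91.6% of the α sum, and the class sums were 5290 for Gs, 210.8 for Gi/o, 177.8 for Gq/11 and 66.2 for G12/13, so that G12/13 came below Gq/11. GNAS took 55.7% of all counts in member genes. It has 58 annotated transcripts, which counts per gene do not separate. The part of its level, and of the Gs sum, that stands for the Gs α subunit itself was therefore not measured.

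Per kb of exon, a band of closely spaced α genes followed. GNA13 averaged 19.05 ± 3.89 CPM per kb, GNAQ 18.2 ± 2.91, GNA12 17.1 ± 3.14, GNA11 16.9 ± 1.51, GNAI2 16.3 ± 2.07 and GNAZ 14.2 ± 2.82 (SD, n = 18). Their ranges over libraries overlapped throughout, so their order is not resolved beyond the spread. The band held both G12/13 genes, the 2 widely expressed Gq/11 genes and 2 of the 5 Gi/o genes. By median transcript it does not hold: these genes then ran from 30.3 for GNA13 to 143.6 for GNA11, with GNAO1 at 51.4 among them.

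The other Gi/o genes were lower per length. GNAI3 averaged 4.53 ± 0.981 CPM per kb and GNAO1, the α subunit that is abundant in brain, 4.18 ± 0.735, again with overlapping ranges. GNAI1 averaged 1.32 ± 0.317. This order depends on the length used: per kb of median transcript GNAZ led the class at 83.4, followed by GNAI2 at 58.5, GNAO1 at 51.4, GNAI1 at 12.97 and GNAI3 at 4.53.

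Among the rarer α genes, GNAL, the Gs relative of olfactory neurons and striatum, averaged 0.841 CPM per kb. GNA14, a Gq/11 gene, averaged 0.114 CPM per kb and rested on 2 to 17 counts per library. GNA15, a Gq/11 gene of blood cells, had 21 counts in all, 0 in 12 libraries and 13 in Control 1. GNAT1, rod transducin, had 37 counts in all, 0 in 7 libraries and 15 in Control 1.

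GNAT2, cone transducin, was listed at 1.73 CPM per kb from 6 to 106 counts per library. The counts carry no strand, and 97.0% of its exon sequence lies under exons of GNAI3 on the opposite strand, so its reads cannot be separated from those of GNAI3. Of 13 photoreceptor markers, 3 had a mean of at least 1 CPM per kb (PDE6B, OPN1SW and NRL), and none had 0 counts in all libraries. RCVRN, recoverin, had 4 counts in all.

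**Figure D1:**
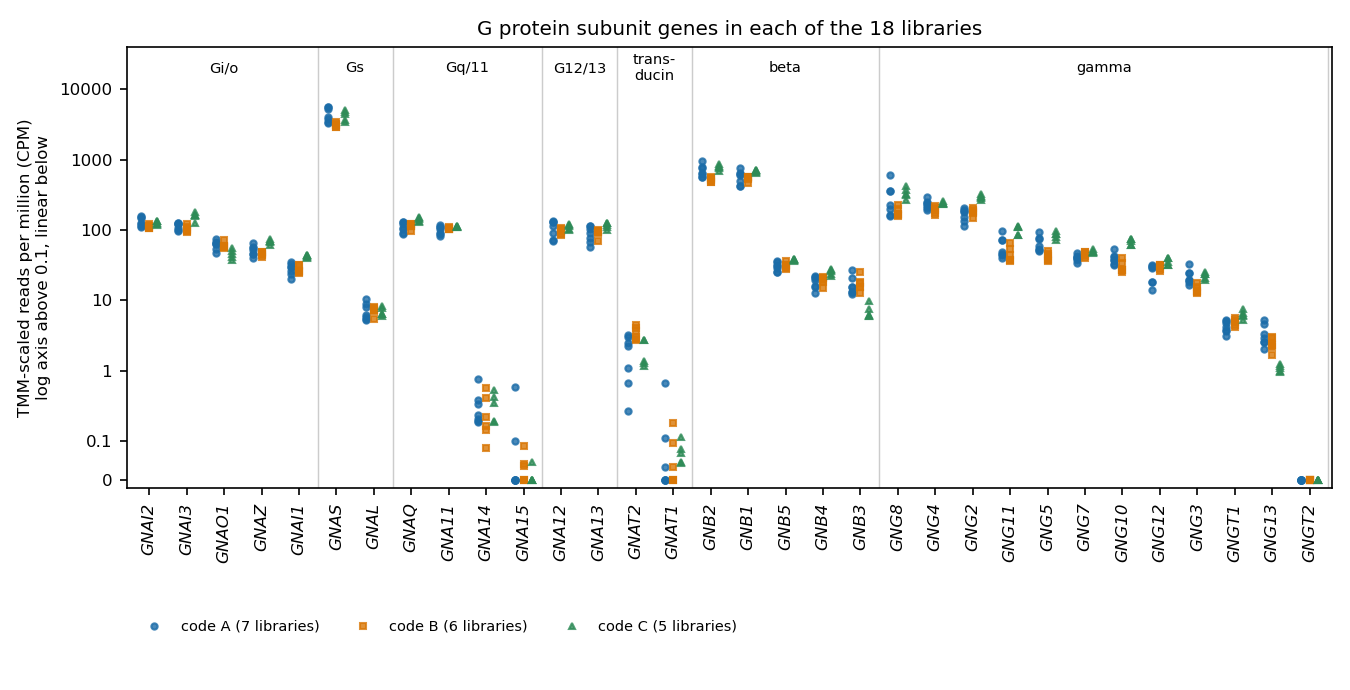
TMM-scaled CPM (y axis, logarithmic above 0.1 and linear below) for the 32 genes (x axis, by class), with 1 point per library, marked by library code. GNAS lies highest, GNB2 and GNB1 next, and GNGT2 at 0 in all 18 libraries.

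The β subunits were carried by 2 genes. GNB2 averaged 233.4 ± 51.2 CPM per kb and GNB1 92.7 ± 15.7 (SD, n = 18), or 69.0% ± 5.21 and 28.0% ± 4.95 of the β sum. By median transcript their shares were 45.9% and 47.7%, so which of them is more abundant depends on the length chosen. GNB3, described in cone photoreceptors and other tissues, averaged 4.16 CPM per kb, GNB4 2.94 and GNB5, the β subunit that pairs with RGS proteins, 2.47. By median transcript these 3 stood in the opposite order, at 14.9, 22.05 and 33.8. Of GNB3 exon sequence 16.0% is shared with CDCA3, and of GNB4 27.6% with an antisense gene, both on the opposite strand.

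Among the γ genes GNG8 stood at 1247 ± 558 CPM per kb (SD, n = 18), with a range of 721.6 to 2787. It made up 83.6% ± 3.39 of the γ sum per kb of exon and 62.7% by median transcript. GNG8, described in olfactory and vomeronasal neurons, has the shortest exon sequence of all 32 genes, 216 bp in 2 exons, and took 3.73% of the counts in member genes. Its GENCODE 29 model (chr19:46634076-46634685) ends at the stop codon and lacks the upstream start that RefSeq places beyond it, so its level per length rests on this short model and would differ with a longer one. Its 269.3 CPM were close to the 222.4 CPM of GNG4 and the 208.4 CPM of GNG2, whose exons are longer.

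The next γ genes per kb of exon were GNG5 at 56.8, GNG4 at 41.2, GNG2 at 32.7, GNG10 at 29.8, GNG3 at 22.4 and GNG11 at 21.9 CPM per kb. By median transcript GNG2 came to 360.8, GNG4 to 129.2 and GNG5 to 79.9, the opposite order for these 3. GNG7, GNG12, GNG13 and GNGT1 lay between 2.15 and 9.77. GNGT2, the cone γ subunit, had 0 counts in every library, and 3 counts, the limit that 0 allows, would be 0.0958 to 0.142 CPM. Overlapping genes limit some of these values: 73.1% of GNG10 exon sequence is also in the DNAJC25-GNG10 readthrough gene, 50.7% of GNG3 lies under BSCL2, 30.9% of GNG5 is in AL359762.3 and 19.6% of GNG13 lies under CHTF18.

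**Figure D2:**
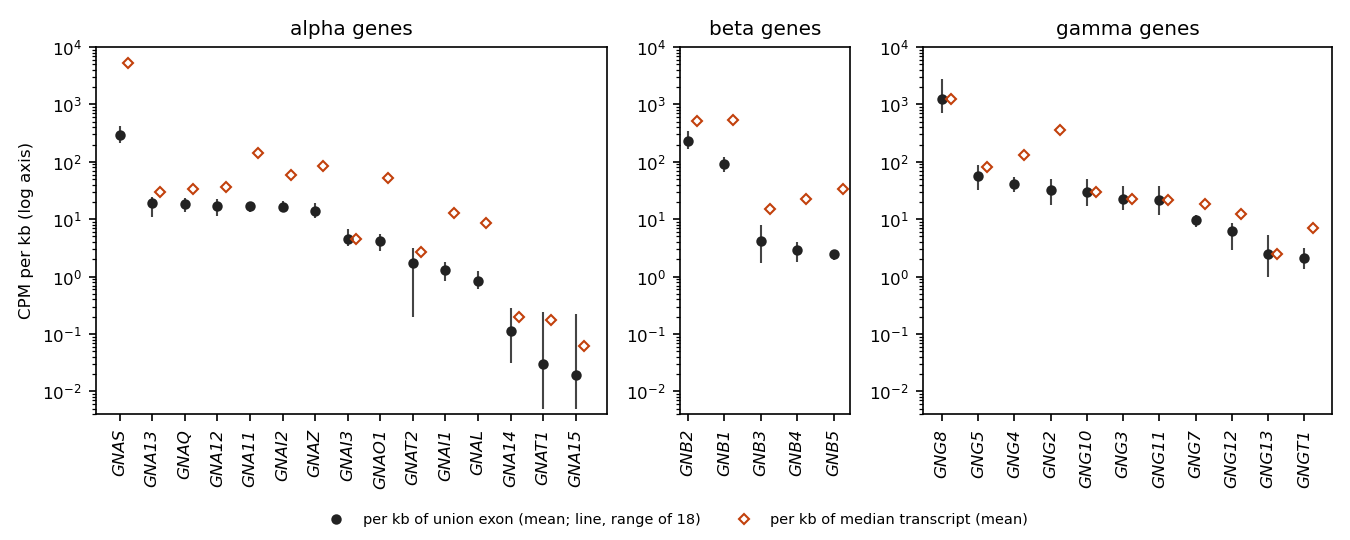
Level per kb (y axis, log) of the α, β and γ genes with counts, ordered by level within each family. Filled points are means over 18 libraries per kb of summed exons, with lines from the lowest to the highest library (drawn to the lower edge where the lowest is 0), and open diamonds are means per kb of the median transcript, which for GNB1 and GNB2 gives the opposite order.

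The upstream sequence of GNG8 was picked by a rule on the library codes. Of the 22 members called between codes C and B, as described below, 19 had a RefSeq promoter sequence. For 5 of these a window of 250 bases before a start was free of annotated exons, and only GNG8 among them had a single promoter listed. GNG8 is also the member with the highest level per kb of exon (by median transcript GNAS is higher). RefSeq promoter sequences (GRCh38.p14) were at hand for 27 of the 32 genes. The 250 bases before the RefSeq start of GNG8, which lies upstream of the GENCODE 29 model used for the counts, hold 67.6% G and C and 14 CG pairs, against medians of 58.0% and 11 over 35116 such windows. The GC box GGGCGG occurs 3 times on the strand shown, in capitals, with 2 copies that overlap, and 42.6% of all windows hold it on either strand. None of TGACG (in 21.2% of windows), CCAAT (32.01%), TATAAA (10.7%), AGGTCA (12.1%) or the NRF1 core (5.1%) occurs there on either strand, which says nothing about the factors themselves.
GNG8 (chr19:46636203-46636452, minus strand): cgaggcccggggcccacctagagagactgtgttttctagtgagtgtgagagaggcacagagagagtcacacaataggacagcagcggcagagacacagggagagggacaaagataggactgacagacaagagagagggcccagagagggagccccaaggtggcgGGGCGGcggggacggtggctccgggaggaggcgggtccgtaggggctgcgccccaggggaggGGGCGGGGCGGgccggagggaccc

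After 15 min none of the ligands gave a member gene that passed the test against Control. By the quasi-likelihood test of edgeR, adjusted after Benjamini-Hochberg over all tested genes, 0 of the 29 members passed at 0.05 for morphine, metamorphine, TRV130, Beta-Endorphin or naloxone, as did 0 of 23231 genes (0%) in each. At an unadjusted p under 0.05 stood 1, 2, 0, 1 and 0 members in that order, where all genes gave 4.06%, 7.83%, 1.85%, 9.46% and 6.65%. Leaving out Control 1 gave 0, 0, 1, 0 and 0 members, and 376, 374, 464, 490 and 410 of 23798 genes. Leaving out Control 2 gave 3, 3, 0, 4 and 3 members, and 3238, 4369, 1967, 5009 and 4212 of 23798 genes. Without Control 3 these were 8, 10, 0, 11 and 7 members. All genes rose as well in that fit, to 3577, 4682, 1153, 4852 and 4341 of 24143. With the library code as a block 5, 11, 0, 14 and 6 members stood there, and the count over all genes is not given here. Each of these fits still had 0 members past the adjusted threshold. The smallest adjusted p of any member was 0.823, 0.595, 1.0, 0.513 and 0.655 in the same order. DESeq2 also called 0 members in each, and 0, 0, 1, 1 and 1 genes in all. A test of any difference among the 6 groups and the mean of the 5 compounds against Control gave 0 members and 0 genes (0%) with edgeR as well. At an unadjusted p under 0.05 these had 0 and 2 members, where all genes gave 2.43% and 11.4%. For these DESeq2 called 9 and 12 genes in all and 0 members. Without Control 3 the mean of the 5 compounds gave 366 of 24143 genes (1.52%) with edgeR, 0 members among them. At an unadjusted p under 0.05 it then had 11 members and 5445 genes. With Control 1 left out it gave 0 genes, and 0 members and 608 of 23798 genes at an unadjusted p under 0.05. Without the filter on low counts it gave 3270 of 46594 genes, with 1 member, GNA15, among them.

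A failure to pass does not show that the genes did not differ. The 95% interval of a member's log2 fold change reached between 0.525 and 0.526 to each side at the median of the 29 genes in each of the 5 comparisons, and from 0.296 to 1.39 across genes. With the library code as a block the median reached 0.350 to 0.363. The members' median log2 fold change was 0.078 for morphine, 0.16 for metamorphine, -0.11 for TRV130, 0.14 for Beta-Endorphin and 0.063 for naloxone. Over all tested genes it lay between -0.044 and -0.020. The TRV130 group has no library of code C, where 18 members were higher and 4 lower than in code B, as given below. The part of the library code in the TRV130 median was not tested, so its sign is not set against that of the other compounds. The 5 comparisons share the Control libraries, so their values are not independent of one another. In bulk RNA, fewer cells of a kind and less RNA per cell cannot be told apart.

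**Figure D3:**
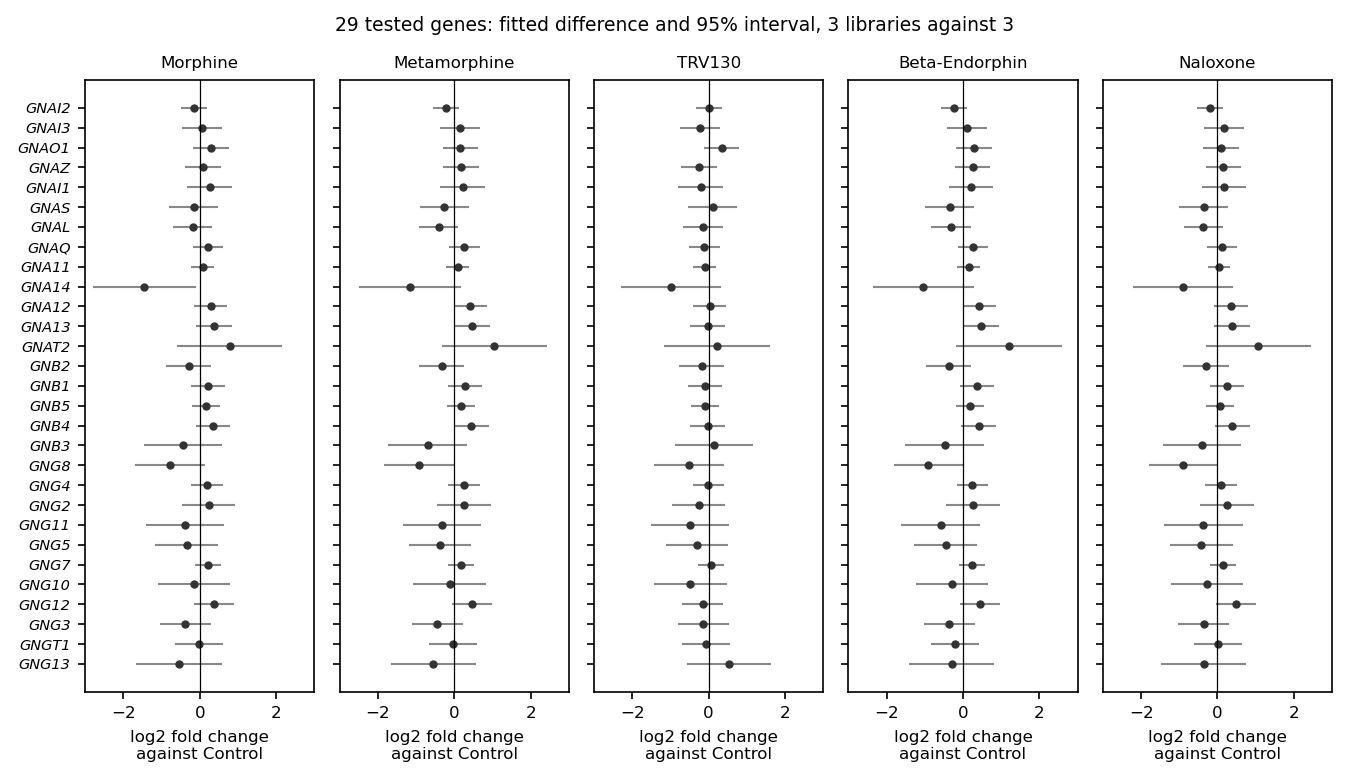
Fitted log2 fold change against Control (x axis, points) with its 95% interval (lines) for the 29 tested genes (rows), in 1 panel per compound, with 3 libraries a group. No gene passed the adjusted threshold in any panel, and the widest intervals belong to GNA14 and GNAT2, which rest on few counts.

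GNG8 was among the 3 members with the smallest p for every compound. Its CPM in replicates 1, 2 and 3 were 602.0, 224.6 and 420.7 in Control, 155.9, 197.7 and 376.2 with morphine, and 162.4, 167.3 and 325.7 with metamorphine. They were 358.4, 354.0 and 163.9 with TRV130, 230.1, 169.3 and 266.3 with Beta-Endorphin, and 202.5, 156.2 and 314.4 with naloxone. The highest value is that of Control 1, and every other group overlapped the range of Control.

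Against Control the log2 fold changes of GNG8 were -0.77 for morphine (SE 0.431), -0.93 for metamorphine (SE 0.432), -0.51 for TRV130 (SE 0.429), -0.91 for Beta-Endorphin (SE 0.432) and -0.89 for naloxone (SE 0.431). Unadjusted p-values by edgeR were 0.0912, 0.0470, 0.252, 0.0519 and 0.0556 in that order. For the mean of the 5 compounds the value was -0.80 (SE 0.312), with an adjusted p of 0.434 by edgeR. Without Control 1 these values became -0.42, -0.57, -0.17, -0.56 and -0.52, and -0.45 for the mean. With 1 other library left out they reached -1.26, -1.33, -0.81, -1.20 and -1.24, and -1.10 for the mean. Compared within its code, GNG8 was lower than Control in 15 of 15 compound libraries, with median differences in log2(CPM + 1) of -1.475 in code A, -0.422 in B and -0.394 in C.

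Such one-sidedness was counted for all genes, since each code has only 1 Control library and all its compound libraries are set against it. Of the 29 members, 1 (GNG8) was lower in all 15, where 2.79% of all tested genes were. Another 3 members (GNAT2, GNG7 and GNG12) were higher in all 15, 10.3% of them, where 3.68% of all genes were. GNG12, a widely expressed γ subunit, had 13.99, 26.34 and 32.17 CPM in Control replicates 1, 2 and 3, and its naloxone log2 fold change of 0.49 (SE 0.248) had an unadjusted p of 0.0654 by edgeR. Without Control 1 that log2 fold change was 0.22, and with 1 other library left out it reached 0.76. GNAT2 had the lowest level of its own in Control 1, at 0.271 CPM. These genes were singled out after their values were seen. Control 1 was the lowest library of code A for 10 of the 29 members and the highest for 10. Control 2 was the lowest of code B for 15 and the highest for 4, so the differences within code B rest on it. The same was not counted over all genes.

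GNA13, of the G12/13 class, was among the 3 members with the smallest p for morphine, metamorphine and Beta-Endorphin, and its relative GNA12 for Beta-Endorphin. GNA13 had 56.69, 69.98 and 111.3 CPM in Control, 112.9, 96.1 and 99.08 with morphine, and 104.8, 99.81 and 126.1 with metamorphine. It had 67.4, 76.44 and 90.22 with TRV130, 115.2, 93.96 and 119.4 with Beta-Endorphin, and 91.24, 95.18 and 124.2 with naloxone. Control replicates 1 and 2 lie below every library of the other groups except the first with TRV130, while Control 3 lies among them.

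The log2 fold change of GNA13 was 0.37 for morphine (SE 0.219, unadjusted p = 0.108 by edgeR), 0.47 for metamorphine (SE 0.219, unadjusted p = 0.0454) and 0.47 for Beta-Endorphin (SE 0.219, unadjusted p = 0.0493). The adjusted p by edgeR was 0.595 for metamorphine and 0.513 for Beta-Endorphin. Without Control 1 the log2 fold changes of GNA13 were 0.16, 0.28 and 0.25 in the same order. With 1 other library left out they reached 0.71, 0.81 and 0.80. For the mean of the 5 compounds GNA13 gave 0.33, and 0.13 without Control 1. With the library code as a block that mean was 0.39, with an adjusted p of 0.107 by edgeR. Within codes the median difference in log2(CPM + 1) was 0.776 in code A, 0.438 in B and 0.129 in C, where 3 of 4 compound libraries were higher. GNA12 gave 0.42 for Beta-Endorphin (SE 0.205, unadjusted p = 0.0547 by edgeR), 0.29 without Control 1 and up to 0.57 with 1 other library left out.

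GNA12 had 72.93, 85.3 and 103.4 CPM in Control and 135.4, 96.34 and 119.4 with Beta-Endorphin, so only the highest Control library reached into the range of the other group. GNB4, a β subunit, had 12.64, 15.09 and 23.52 CPM in Control, 21.86, 21.47 and 26.66 with metamorphine, and 19.4, 19.58 and 28.24 with naloxone. Its log2 fold change was 0.45 for metamorphine (SE 0.214, unadjusted p = 0.0520 by edgeR) and 0.39 for naloxone (SE 0.214, unadjusted p = 0.0858). As for GNA13, Control replicates 1 and 2 were low and Control 3 was not, and without Control 1 the values of GNB4 were 0.27 and 0.22. With 1 other library left out they reached 0.76 and 0.70.

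GNA14 had the smallest unadjusted p of any member for morphine (log2 fold change -1.46, SE 0.639, unadjusted p = 0.0362, adjusted p = 0.823 by edgeR). It rested on few counts: its CPM were 0.767, 0.575 and 0.346 in Control and 0.187, 0.224 and 0.193 with morphine, without overlap. For TRV130, where GNA14 gave -0.99 (SE 0.621, unadjusted p = 0.131 by edgeR), its CPM were 0.196, 0.238 and 0.405, which overlap with Control. Without Control 1 the log2 fold change of GNA14 was -1.19 for morphine and -0.71 for TRV130. With 1 other library left out it reached -1.70 and -1.35. GNAO1 gave 0.34 for TRV130 (SE 0.22, unadjusted p = 0.141 by edgeR), with 46.98, 56.13 and 46.23 CPM in Control and 54.04, 63.46 and 71.55 with TRV130. The TRV130 group has no library of code C, where GNAO1 was low, and with the library code as a block its log2 fold change was 0.20.

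**Figure D4:**
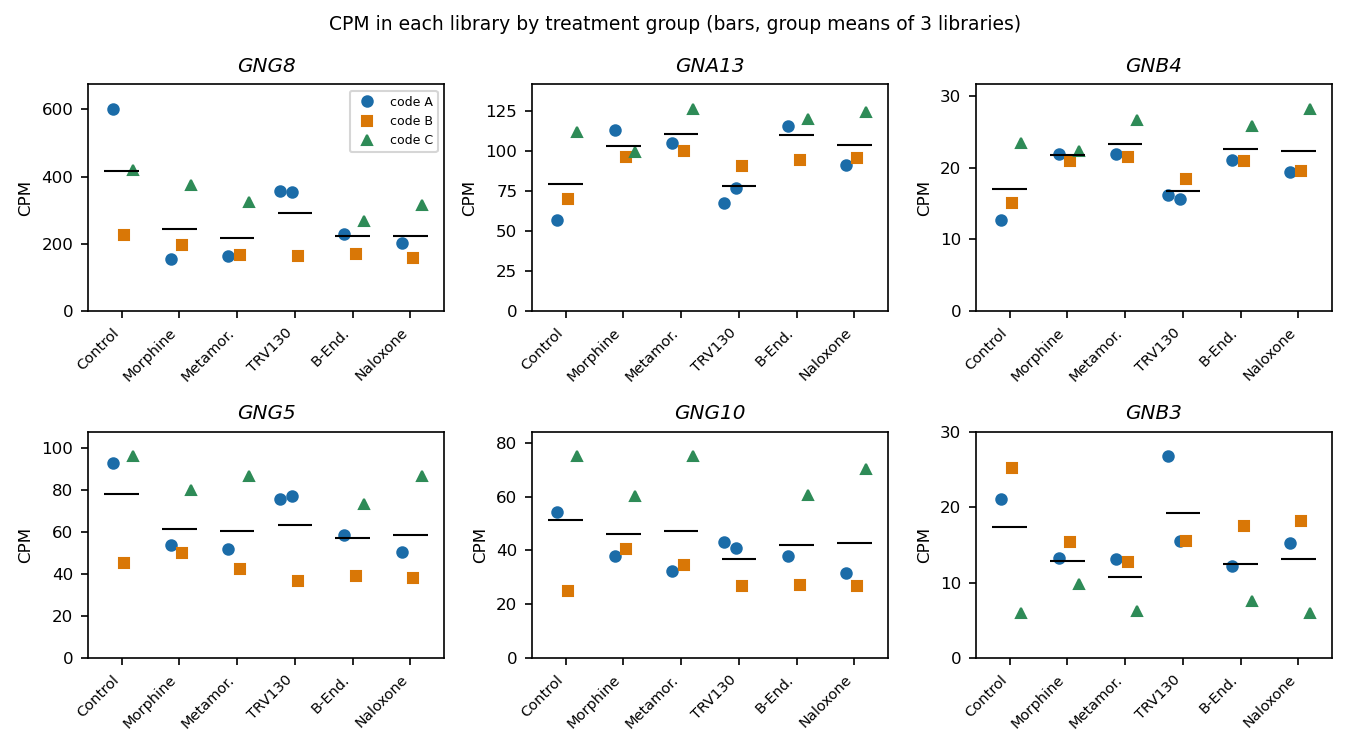
CPM (y axis, from 0) of GNG8, GNA13, GNB4, GNG5, GNG10 and GNB3 in each library by treatment group (x axis), with marks for library code and bars for the mean of 3 libraries. Code C marks lie above code B marks in GNG8, GNG5 and GNG10 and below them in GNB3, and Control 1 is the highest GNG8 value.

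The members differed between library codes, which was tested in a model that kept the compound groups. Between codes C and B, 18 members were higher in C and 4 lower, where 26.9% of all tested genes were higher and 27.8% lower. Between C and A, 14 were higher and 3 lower (all genes, 16.1% higher and 17.1% lower), and between B and A, 1 was higher and 7 lower (all genes, 11.5% and 15.5%). Any difference among the 3 codes was called for 23 of 29 members and 57.8% of all genes. The members' median log2 difference was 0.33 for C minus B, 0.27 for C minus A and -0.074 for B minus A, against -0.044, -0.021 and 0.015 over all genes. What the codes stand for is not given, so nothing beyond the libraries can be read from the direction.

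Other measures also differed by code. Genes of 1000 to under 2000 bp of exon had a median log2 difference of 0.557 between C and B (58.2% called higher), and genes of 8000 bp or more had -0.261 (12.7% called higher, 44.5% lower). Of the 3 members of 1000 to under 2000 bp, 2 were called higher and 1 lower. Of the 6 members of 8000 bp or more, 4 were called higher and 1 lower. Of the 11 members of 4000 to under 8000 bp, 6 were called higher and 0 lower (all genes, 28.2% and 25.8%). Mitochondrial genes took 6.15% to 17.7% of counts in code A, 8.02% to 15.7% in B and 4.66% to 9.47% in C. The part of these measures in the members' differences was not tested. The call for B minus A is the least stable: it was 2 members without Control 1, Naloxone 1 and Naloxone 2, and 3 without the TRV130 libraries. The share of all genes called fell alongside, from 26.9% to 7.45% and 8.12%. Leaving out single libraries gave 3 without Control 2 or TRV130 3, 4 without TRV130 2 or Beta-Endorphin 1, and 5 without Control 1, TRV130 1, Naloxone 1 or Naloxone 2. For C minus A it was 11 without Control 1, Naloxone 1 and Naloxone 2 (18.7% of all genes).

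In the Gi/o class, 3 of 5 genes were higher and 1 lower in C than in both A and B. GNAI1, like GNAI2 and GNAI3 an inhibitor of adenylyl cyclase, had 44.19, 40.7, 42.37, 41.77 and 44.08 CPM in the 5 code C libraries (Control, morphine, metamorphine, Beta-Endorphin and naloxone, in this order throughout). In code A it had 19.95 at the lowest, 29.65 at the median and 34.77 at the highest, and in code B 24.39, 26.10 and 31.62. Every code C library was thus above every library of the other codes, and C minus B was 0.61 (SE 0.113, adjusted p = 0.000288 by edgeR).

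GNAI3 had 164.3, 126.7, 161.5, 156.2 and 183.0 CPM in code C, 97.48, 120.8 and 127.7 (lowest, median, highest, as for each gene below) in A and 94.33, 100.5 and 121.2 in B. Only the morphine library of code C fell within the range of A, and none within that of B (C minus B 0.58, SE 0.102, adjusted p = 0.000211 by edgeR). GNAZ, the Gi/o gene whose product resists pertussis toxin, had 66.81, 61.49, 69.27, 68.92 and 73.47 CPM in C, 39.75, 52.44 and 66.34 in A and 41.39, 46.51 and 48.13 in B. The code C libraries lay above all of B and partly within A. GNAZ differed by 0.53 between C and B (SE 0.0908, adjusted p = 0.000175 by edgeR).

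GNAO1 went the other way. It had 46.23, 56.45, 40.91, 49.92 and 38.04 CPM in C, 46.98, 63.57 and 75.71 in A and 56.13, 58.69 and 71.55 in B, so that C lay mostly below with some overlap (C minus B -0.38, SE 0.115, adjusted p = 0.0102 by edgeR). Without Naloxone 3 this became -0.28, with an adjusted p of 0.0659. The C minus A call of GNAO1 was lost without Metamorphine 3 (adjusted p 0.0556) or Naloxone 3 (0.0597). GNAI2, the Gi/o gene with the highest level per kb of exon, was not called between any codes. It had 134.1, 136.2, 127.5, 116.5 and 122.6 CPM in C, 109.1, 125.2 and 158.8 in A and 106.8, 110.5 and 122.7 in B.

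Among the other α genes, GNAS was lower in B than in A by 0.44 (SE 0.136, adjusted p = 0.0274 by edgeR) and higher in C than in B by 0.49 (SE 0.145, adjusted p = 0.0097). Its CPM were 4766, 5016, 4446, 3409 and 3637 in C, 3304, 4054 and 5568 in A and 2870, 3141 and 3464 in B. The Beta-Endorphin library of code C fell within the range of B. The call for B minus A was lost, with adjusted p from 0.0522 to 0.125, when Control 1, Control 2, TRV130 2, TRV130 3, Beta-Endorphin 1, Naloxone 1 or Naloxone 2 was left out. GNAQ had 143.0, 132.0, 155.4, 149.6 and 135.6 CPM in C, all above the 86.94, 107.9 and 131.2 of A and the 96.45, 115.7 and 121.6 of B (C minus B 0.30, SE 0.0957, adjusted p = 0.0133 by edgeR). Without Control 3 this became 0.23, with an adjusted p of 0.057.

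GNA13 differed by 0.33 between C and B (SE 0.125, adjusted p = 0.0364 by edgeR), with 111.3, 99.08, 126.1, 119.4 and 124.2 CPM in C, 56.69, 91.24 and 115.2 in A and 69.98, 94.57 and 99.81 in B. The codes overlapped, and the call was lost without Control 2, Control 3, Metamorphine 3 or Beta-Endorphin 2 (adjusted p from 0.0609 to 0.17). GNAL, GNA11, GNA14 and GNA12 were not called between any codes. GNAT2 was higher in B than in A by 0.96 (SE 0.311, adjusted p = 0.032 by edgeR) and lower in C than in B by 1.07 on the log2 scale (log2 difference -1.07, SE 0.352, adjusted p = 0.0169). Its CPM were 1.168, 1.271, 1.373, 2.704 and 2.757 in C, 0.271, 2.267 and 3.219 in A and 2.700, 3.364 and 4.428 in B. All 3 codes overlapped. The C minus B call was lost without Control 2, Morphine 3 or Metamorphine 3 (adjusted p from 0.0601 to 0.0649), and the B minus A call without Control 2, any TRV130 library, Beta-Endorphin 1 or Naloxone 1 (adjusted p from 0.0594 to 0.154). GNAI3, whose exons cover GNAT2, was higher in C than in B. The photoreceptor markers summed to 16.51 to 26.94 CPM per kb in A, 19.57 to 29.91 in B and 10.61 to 12.43 in C, and their part in the result was not tested.

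The β genes differed in both directions. GNB3 had 5.968, 9.819, 6.297, 7.586 and 6.038 CPM in C, all below the 12.16, 15.30 and 26.79 of A and the 12.79, 16.51 and 25.19 of B. C minus B was -1.22 (SE 0.201, adjusted p = 0.000121 by edgeR) and C minus A -1.11 (SE 0.204, adjusted p = 0.00113), the only β gene lower in C. The other 4 β genes were higher in C than in B.

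GNB2 had 879.8, 795.5, 756.1, 692.7 and 820.3 CPM in C, above the 481.4, 523.0 and 574.5 of B and within the 564.8, 646.1 and 969.5 of A. It was higher in C than in B by 0.61 (SE 0.118, adjusted p = 0.000441 by edgeR) and lower in B than in A (log2 difference -0.39, SE 0.110, adjusted p = 0.0174), the latter not without Control 2 (adjusted p 0.0614) or TRV130 3 (0.0767). GNB4 had 23.52, 22.37, 26.66, 25.79 and 28.24 CPM in C, above all of the 12.64, 19.40 and 21.89 of A and the 15.09, 20.26 and 21.47 of B (C minus B 0.36, SE 0.103, adjusted p = 0.0075 by edgeR). GNB1 and GNB5 differed between C and B by 0.31 and 0.26, and both calls were lost without Control 2, Control 3 or Beta-Endorphin 2, that of GNB1 also without Metamorphine 3 (adjusted p from 0.0521 to 0.131).

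Of the 11 tested γ genes, 8 were higher and 1 lower in C than in B, 7 higher and 1 lower in C than in A, and 5 lower in B than in A. Of those 5, GNG8 lost its call in 14 of 24 alternatives and GNG10 in 12 of 24, among them the fits without Control 1, Control 2, TRV130 1, TRV130 2, TRV130 3, Metamorphine 3, Naloxone 2 or any Beta-Endorphin library, and for GNG8 also without Naloxone 1 or Naloxone 3 (adjusted p from 0.0509 to 0.18). GNG10, a widely expressed γ subunit, had 75.07, 60.38, 74.95, 60.69 and 70.12 CPM in C, all above the 31.60, 38.10 and 54.20 of A and the 25.10, 27.04 and 40.44 of B. C minus B was 1.18 (SE 0.145, adjusted p = 1.665e-05 by edgeR). GNG5, likewise widely expressed, had 96.26, 80.17, 86.55, 73.32 and 86.52 CPM in C, 50.64, 58.81 and 92.88 in A and 36.60, 41.02 and 50.03 in B. Here the libraries of B lay below all others, with 1.03 for C minus B (SE 0.125, adjusted p = 1.665e-05 by edgeR) and -0.60 for B minus A (SE 0.118, adjusted p = 0.00301).

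GNG2, a γ subunit common in neurons, had 306.5, 265.7, 323.6, 286.7 and 294.7 CPM in C, above the 114.8, 182.8 and 208.3 of A and the 148.5, 183.3 and 209.0 of B. It differed by 0.68 between C and B (SE 0.119, adjusted p = 0.000197 by edgeR) and by 0.79 between C and A (SE 0.118, adjusted p = 0.000355). GNG8 had 420.7, 376.2, 325.7, 266.3 and 314.4 CPM in C and 156.2, 168.3 and 224.6 in B, without overlap, and 155.9, 230.1 and 602.0 in A (C minus B 0.96, SE 0.201, adjusted p = 0.000798 by edgeR).

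Both tested γ genes with a serine codon at the end were higher in C. GNG11 had 112.3, 85.33, 110.9, 84.86 and 114.4 CPM in C, 40.18, 48.09 and 98.16 in A and 36.89, 41.26 and 66.02 in B (C minus B 1.16, SE 0.201, adjusted p = 0.000172 by edgeR). Code C lay above all of B and overlapped with A. GNGT1, the rod γ subunit, differed by 0.64 between C and A and by 0.41 between C and B, the latter not without Control 2, Metamorphine 3, Beta-Endorphin 2 or Naloxone 3 (adjusted p from 0.062 to 0.097). GNG13, described in taste and retinal cells, was the γ gene lower in C, with 1.081, 1.232, 1.184, 0.969 and 0.977 CPM against 2.060, 2.934 and 5.248 in A and 1.694, 2.324 and 3.039 in B. Code C overlapped with neither of the others (C minus B -1.04, SE 0.224, adjusted p = 0.00101 by edgeR). GNG11, GNGT1 and GNG13 were singled out after their values were seen.

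**Figure D5:**
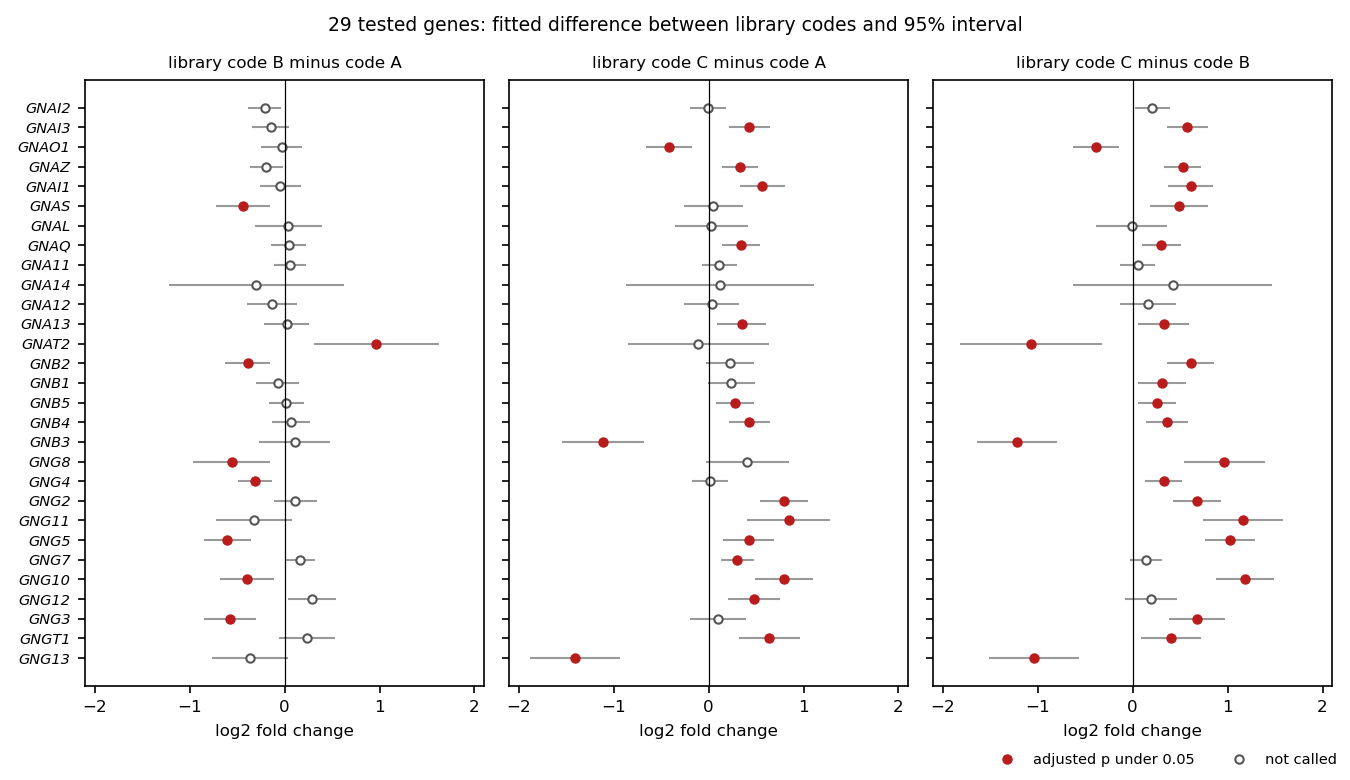
Fitted log2 difference between library codes (x axis) with its 95% interval for the 29 tested genes (rows), in 1 panel per pair of codes, with filled points where the adjusted p was under 0.05. In the panel of C minus B, 18 genes lie to the right and 4 (GNAO1, GNAT2, GNB3 and GNG13) to the left.

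Genes that act next to these subunits were read from a list of 45 receptors, chaperones, exchange factors and effectors, of which 38 were tested. With edgeR, 0 of them passed for any compound, and 5, 2, 1, 5 and 0 stood at an unadjusted p under 0.05 for morphine, metamorphine, TRV130, Beta-Endorphin and naloxone. All genes gave 4.06%, 7.83%, 1.85%, 9.46% and 6.65% there. Between codes C and B, 4 of the 38 were higher and 19 lower (all genes, 26.9% and 27.8%). Between C and A 3 were higher and 12 lower (all genes, 16.1% and 17.1%). Between B and A 12 were higher and 2 lower (all genes, 11.5% and 15.5%). Between C and B, 7 of the 8 tested adenylyl cyclases and both presynaptic calcium channel genes were lower in C, where 27.8% of all genes were, and 44.5% of genes with 8000 bp or more of exon. Few counts lie behind 2 of these calls. CACNA1A, a calcium channel gene, had 349 counts in all, with 276 in 1 library and 0 in 5 libraries. ADCY10, a cyclase gene, had 197 in all, with 42 in 1 library. Of the 19 list genes lower in C, 13 had 8000 bp or more, as did 17 of the 38 tested, and the part of length was not tested. Of the 13 assembly and exchange genes, 4 were higher and 3 lower in C than in B, where 26.9% and 27.8% of all genes were.

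OPRM1, the μ receptor, averaged 11.8 CPM, OPRD1, the δ receptor, 88.8, and OPRL1, the nociceptin receptor, 16.7, while OPRK1, the κ receptor, at 0.0466 CPM was not tested. OPRM1 was lower in C than in B (log2 difference -1.57, SE 0.202, adjusted p = 2.039e-05 by edgeR), as was OPRD1 (-1.29, SE 0.181, adjusted p = 3.589e-05). OPRL1 differed by 0.04 there (adjusted p = 0.789 by edgeR). PLEKHG5, a guanine nucleotide exchange factor, was lower in C than in B (-1.26, SE 0.152, adjusted p = 1.557e-05 by edgeR), and PDCL3, a phosducin-like protein of the family that helps βγ assemble, was higher (1.18, SE 0.150, adjusted p = 1.957e-05).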

How the data were processed

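Raw read counts per Ensembl gene were deposited by the authors for 18 libraries of total RNA. Per the labels' protocols, libraries carried no strand information and were read as paired 150 bp on an Illumina NovaSeq instrument. The tools named, per the submitters' processing notes, are HISAT2, featureCounts, FastQC and DESeq2, with the GRCh38 build. Their versions and settings, like the gene annotation, were not given in the sources used here. All 58735 gene IDs were in GENCODE 29, which gave symbols, positions and exon lengths.

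The counts were analysed with edgeR 4.0.16 (limma 3.58.1, R 4.3.3). Genes were kept by filterByExpr (minimum count 10), library sizes were corrected by TMM, and all 18 libraries entered a robust quasi-likelihood fit, with group means for compounds and groups plus library code for codes. P-values are two-sided, adjusted by Benjamini-Hochberg over 23231 genes, with a threshold of 0.05. The codes of TRV130 1 and 2, written with a leading digit, were read as that of A. Levels between genes were to be in TPM, and CPM per kb of summed exons was used instead, since TPM would change its denominator with the length chosen.

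Genes given library by library were the most abundant of each class per length and up to 3 per class that passed in any comparison, by smallest adjusted p. The 3 smallest p per compound, the opioid receptors and the 4 pathway genes with the smallest p for the code were named too. Members, lists and rules were chosen with earlier results of these data known. Alternatives were DESeq2 1.42.0, other scaling, no count filter, replicate number or library code as a block, and left-out libraries. On simulated counts of 23231 genes the fits recovered most of the changes put in. Those changes were larger than any fitted for a tested member, and the spread was smaller than in the compound fit. The simulated compound comparison also held no library code differences. How well shifts of the members' size would be found was not tested. Deviations from group means of same-numbered naloxone and Control libraries correlated at 0.249 to 0.726 in all 3 pairs, so these numbers pair the libraries. The naloxone SEs and unadjusted p-values above still come from the fit without pairing. With the library code as a block, which pairs these libraries, naloxone gave -0.90 for GNG8, 0.53 for GNG12 and 0.41 for GNB4. The adjusted p by edgeR was 0.191 for each.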

Additional observations from a re-analysis of the deposited data

Results flagged for a closer look

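Within the libraries of 1 code, 7 of 87 sets of values held a library far from the others, where the nominal rate is about 1 in 20. The share over all tested genes was not counted. Sets that share libraries are not independent, and Control 2 recurs below. In code B, GNAO1 in TRV130 3 was at 71.55 CPM with the next library at 60.3, and GNAL in the same library at 5.47 CPM with the next at 7.06. Control 2 was lowest of code B for GNAQ at 96.45 CPM (next 114.3), for GNA13 at 69.98 (next 90.22) and for GNB1 at 473.7 (next 534.5). GNA14 was at 0.7672 CPM in Control 1 against 0.3863 in the next library of code A. GNG4 was at 257.7 CPM in Metamorphine 3 against 240.7 in the next library of code C.

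In 6 of 87 comparisons between codes, every compound library lay on one side of the Control library of its code in one code and on the opposite side in the other. Over all tested genes the same held in 7.09% of such comparisons, against 6.9% for the members. The difference was not tested, and each code has 1 Control library. For GNAI1 the median difference in log2(CPM + 1) was 0.5495 in A, 0.1084 in B and -0.0695 in C, so that A exceeded C by 0.619 and B exceeded C by 0.178. For GNB3 it was -0.6695 in B and 0.184 in C, a difference of -0.853. For GNB5 it was 0.2974 in A and -0.0125 in C, a difference of 0.31. For GNG10 it was -0.4995 in A, 0.1138 in B and -0.1997 in C, with differences of -0.613 between A and B and 0.314 between B and C.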

How the results depend on the processing

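The compound comparisons gave 462 of 464 alternative values with the same direction and side of the threshold, over 18 results. Without the low-count filter 1 member was called for the mean of the 5 compounds, GNA15 (log2 fold change -4.07, adjusted p 0.0226 by edgeR), whose counts lie mostly in Control 1. This was 1 of 31 members, and 3270 of all 46594 genes (7.02%) were called in that fit. Signs turned for GNG8 with TRV130 at 0.14 (library code as a block, without Control 1) and with naloxone at 0.0028 (without Control 1, Naloxone 1 and Naloxone 2). With the library code as a block GNG8 was -0.78 for the mean of the 5 compounds, with an adjusted p of 0.102 by edgeR, in a range over its alternatives from 0.102 to 1. The replicate block changed no call: 0 members passed in each compound comparison. Same-numbered pairs with Control had correlations down to -0.258 for morphine, -0.0501 for metamorphine and -0.534 for TRV130, so those numbers are not taken to pair libraries. For Beta-Endorphin they ran from 0.0996 to 0.666, all above 0 as for naloxone. The Beta-Endorphin SEs and unadjusted p-values above also come from the fit without pairing. With the library code as a block, Beta-Endorphin gave -0.88 for GNG8 and 0.50 for GNA13, each with an adjusted p of 0.134 by edgeR. For GNA12 it gave 0.42 (adjusted p 0.159 by edgeR). Outside TRV130 a replicate number is also a library code, so the fit with the code as a block pairs those libraries in any case. A library correlated best with its own number in 4 of 6 cases for morphine, 4 for metamorphine, 2 for TRV130, 6 for Beta-Endorphin and 6 for naloxone.

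For the codes, 1028 of 1128 values over 47 results kept direction and side and 100 lost the threshold. B minus A gave 2 members without Control 1, Naloxone 1 and Naloxone 2, 3 without the TRV130 libraries, and 3 to 10 with single libraries left out, against 8. C minus A gave 11 without Control 1, Naloxone 1 and Naloxone 2, against 17, and 13 to 18 with single libraries left out. C minus B gave 17 to 24 and any difference 20 to 25. Replacing TMM by RLE scaling moved the median log2 value of a comparison by up to 0.0205 in size. Depth limited GNA14, GNAT2 and GNG13 most, the tested members with the fewest counts.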

Other observations

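The ratio of GNB2 to GNB1 in CPM, looked at after the values were seen, varied most within code A. It was 2.27 in Control 1, 1.79 in TRV130 1 and 1.61 in TRV130 2, and between 0.84 and 1.02 in the other 4 libraries of that code. In code B it ran from 0.861 to 1.09 and in code C from 0.992 to 1.3. GNAS was also highest in those 3 libraries, at 5222, 5537 and 5568 CPM, against 3304 to 4054 in the others of code A. Their TMM factors were 0.873, 0.870 and 0.887, against 1.023 to 1.048 in the others of code A. Mitochondrial genes took 13.3%, 17.7% and 15.6% of their counts, against 6.15% to 10.1%. The part of these library traits in the ratio, or in the TRV130 comparison with Control, was not tested.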
